A study of Homo sapiens with 8 samples.

Results

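This report describes how the input RNA of arsenite-stressed U2OS cells differed between cells with overexpressed QKI7 and cells with an empty vector. U2OS is an established human osteosarcoma line. The comparison used 4 of the 8 libraries of the series, 2 labelled vector input and 2 labelled QKI7 input, and 7834 of the 26902 rows of the expression table. Those rows had a mean input TPM (the share of a library's transcripts that a gene accounts for, corrected for length) of at least 1 and were left after spike-ins, small nuclear, nucleolar, Cajal body and 7S RNAs, ribosomal RNAs and every row with a microRNA-type name had been dropped. Each library was then rescaled so that the remaining rows summed to 1000000, and levels below are in these rescaled TPM unless deposited TPM are named.

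Both constructs were measured only under stress. Every culture had been exposed to 0.5 mM NaAsO2 (sodium arsenite) for 1 h before harvest, so each difference below lies between 2 stressed states, and unstressed cells were not analysed here. Input RNA is the RNA of the whole lysate, depleted of ribosomal RNA, that accompanies ribosome footprints in a ribosome profiling experiment. The footprint libraries of the same constructs hold fragments of 17 to 34 nucleotides and are used here only side by side. Nothing in the labels tells separate cultures from repeats of the same culture, so the spread behind each p-value is that between libraries and may be technical. In bulk RNA, fewer cells of a kind and less RNA per cell cannot be told apart.

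QKI (quaking) belongs to the STAR proteins (signal transduction and activation of RNA), which bind RNA and act on splicing, stability, localization and translation of their targets. Its isoforms share the RNA-binding domain and differ at their C-terminal ends, and QKI7 is mostly cytoplasmic. Arsenite causes oxidative and proteotoxic stress, blocks translation initiation through phosphorylation of eIF2alpha, drives mRNAs and proteins into stress granules, and induces heat shock, oxidative stress and immediate early genes. The table holds 1 value per gene, so isoforms of QKI, and RNA from the construct and from the chromosome, are not separated.

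The construct was present in the libraries labelled with it. QKI (Entrez gene 9444, chromosome 6, 163414718 to 163578592, GRCh38.p14) stood at 70.1 and 75.3 rescaled TPM in the vector inputs and at 33949 and 32483 in the QKI7 inputs. The groups were 457-fold apart (log2 change 8.82, SE 0.05; limma adjusted p = 9.64e-10). With QKI7, QKI alone made up 3.40% and 3.25% of the rescaled sum, against 0.00701% and 0.00753% with vector, so equal sums lower all other genes slightly in QKI7 cells. The other 3 STAR-family genes tested did not pass the threshold with equal sums. KHDRBS1 (Sam68) stood at 88.5 and 92.6 with vector and 97.5 and 103 with QKI7 (log2 change 0.15, adjusted p = 0.163), KHDRBS3 changed by -0.04 (adjusted p = 0.772) and SF1, a branch-point binding splicing factor, by -0.17 (adjusted p = 0.0514). SF1 passed as lower under 2 of the 6 other scales and without vector replicate 1, and KHDRBS1 passed as higher under 1 of them.

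Of the 7834 genes, 1769 (22.6%) passed an adjusted p of 0.05, 989 higher with QKI7 (12.6%) and 780 lower (9.96%). Calls were more common at high levels. Of the 1306 genes with the highest level 18.7% rose and 28.7% fell. Of the 1309 with the lowest level 5.65% rose and 1.91% fell. The shares of all genes set beside the lists below are not matched for level or gene length. Most of these changes were small. The size of the change was under 1 on the log2 scale for 1750 of them, 4 genes were higher by more than that and 15 were lower by more, and the median change was 0.39 among the higher and -0.41 among the lower. Replicate inputs correlated at Pearson r = 0.988 for vector and 0.989 for QKI7, and libraries of different constructs at 0.968 to 0.972 (log2 values of 7833 genes, QKI left out).

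The split into higher and lower depended on the scale, so the list medians below are given relative to the median of all genes, which was 0.06. The log2 changes of single genes are not relative to it. Higher genes made up 55.9% of calls with equal sums, 69.6% when QKI was left out of the sums (1487 higher, 650 lower), 51.0% when histone genes, RMRP, RPPH1 and other short non-coding RNAs were left out (886 and 852), 39.3% with median-of-ratios scaling (659 and 1019), 50.5% with quantile normalization (769 and 753), 82.2% when libraries were scaled to the spike-ins (1312 and 285) and 89.4% on the TPM as deposited (2339 and 278). Under all 7 of these scales 849 genes were called in the same direction, 604 higher and 245 lower. Without QKI7 replicate 1 the calls fell to 513 and without QKI7 replicate 2 to 683, and 419 genes were called whichever library was left out (154 higher, 265 lower). When the 4 footprint libraries, which vary more, entered the same fit, 113 genes passed, 7 higher and 106 lower.

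**Figure D1:**
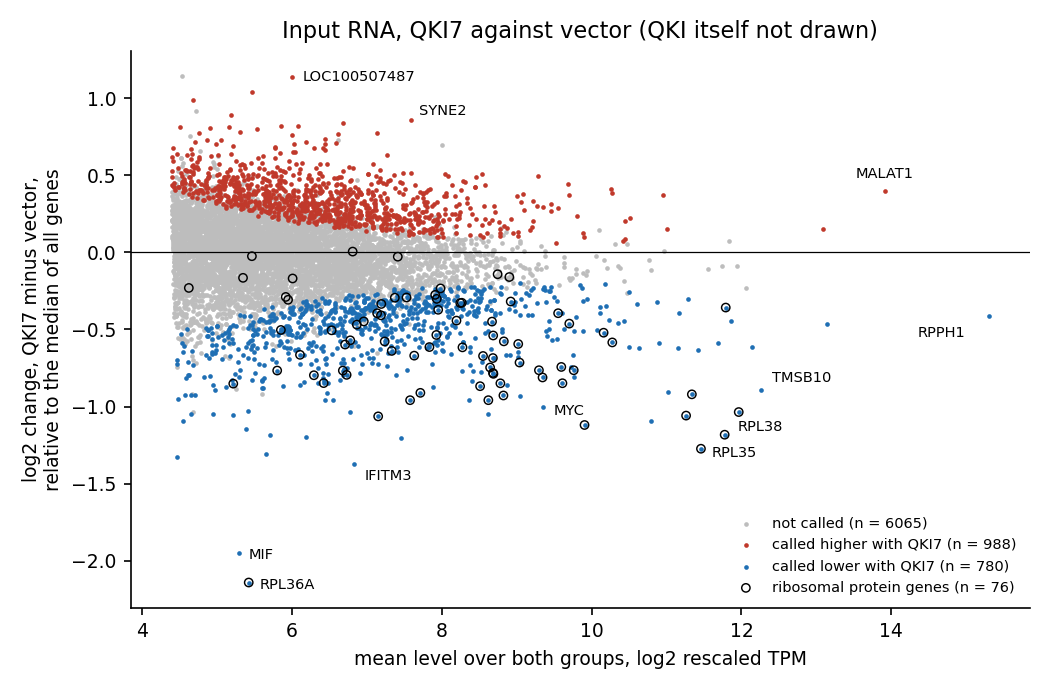
Each point is 1 gene. The horizontal axis is the mean level in the 4 input libraries (log2 rescaled TPM), and the vertical axis is the log2 change, QKI7 minus vector, relative to the median of all genes. Red points were called higher, blue points lower and grey points neither, and rings mark the 76 ribosomal protein genes. The rings lie almost all below the line, while RPL36A and MIF lie lowest.

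Most ribosomal protein mRNAs were lower with QKI7. Of 76 genes for cytosolic ribosomal proteins, 58 fell and 0 rose, where 9.96% of all genes were lower, and their median was 0.59 below that of all genes (-0.59). Together these mRNAs summed to 50340 and 51760 rescaled TPM in the vector inputs and to 31290 and 31370 in the QKI7 inputs. Under the other 6 scales 45 to 63 fell and 0 rose, and 51 to 57 fell with any library left out. With all 8 libraries in the fit 43 fell. Both QKI7 inputs lay below both vector inputs for 71 of the 76, where 24.9% of all genes did so, and above them for 1, RPS13, named here after its values were seen (44.3 and 42.8 with vector, 44.3 and 45 with QKI7).

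Ribosomal protein mRNAs are known for a run of pyrimidines at their 5′ end, the terminal oligopyrimidine (TOP) tract, through which growth signals set their translation. The annotated starts of genes that fell are shown because they let the tract be compared with the size of the change. Each line has 12 bases before and 12 bases from the annotated start on the strand that is transcribed (RefSeq, GRCh38.p14), and capitals mark the unbroken run of C and T that includes the first transcribed base.
RPL36A (chrX:101390999-101391022, plus strand): gcctcgcggTTTCTTTCTTTCCgc
RPL35 (chr9:124861946-124861969, minus strand): cccgcctaCTTCCTCTTTCCCTCg
RPL38 (chr17:74203666-74203689, plus strand): ggaagtctcgTTCTTTTTCgtcct
RPS10 (chr6:34426058-34426081, minus strand): cgcatgCTCCTTCCTTTCCagccc
EEF2 (chr19:3985452-3985475, minus strand): gacgtcagcgTTCTCTTCCgccgt
RPS15 (chr19:1438384-1438407, plus strand): gcaggcgcggaCCaaagcgatctc
RPL21 (chr13:27251546-27251569, plus strand): ccccgCCTCTTTCCTTTCggccgg
RPS13 (chr11:17077656-17077679, minus strand): cactctcgCTCTCCTTTCgttgcc
The first 5 have runs of 9 to 15 bases, bases before the start included, and fell. RPS15 has a run of 2 bases at its annotated start and fell by 1.06 on the log2 scale. RPL21 and RPS13, shown after their values were seen, have runs of 13 and 10 bases and were not called (log2 changes 0.07 and 0.04, adjusted p = 0.566 and 0.795).

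A run of at least 5 bases was found at the start of 44 of the 60 ribosomal protein genes with a sequence in the table (73.3%), and at 9.80% of all 27305 annotated starts in it. Among the 6240 tested genes with a sequence, it stood at 95 of 623 genes that fell (15.2%), 68 of 768 that rose (8.85%) and 416 of 4849 that were not called (8.58%). Without ribosomal proteins it stood at 65 of 580 genes that fell (11.2%). Within the ribosomal protein genes the relative median was -0.57 with the run and -0.52 without it. These are matches of letters at an annotated start, which is not always the start used. The runs take in bases before that start, so their length can exceed that of the tract in the RNA.

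In the large subunit 38 of 46 genes fell. RPL35 (chromosome 9, 124857883 to 124861957) stood at 3833 and 4039 with vector and at 1726 and 1668 with QKI7, a 2.32-fold difference (log2 change -1.21, SE 0.04, adjusted p = 0.000109). RPL38 (chromosome 17, 74203678 to 74210655) stood at 4676 and 4940 with vector and at 2150 and 2266 with QKI7, 2.18-fold lower in the means (log2 change -1.12, SE 0.04, adjusted p = 0.000155). RPL19 stood at 5094 and 5505, against 2665 and 2720 (log2 change -0.98, adjusted p = 0.000267). In these 3 abundant mRNAs the replicates of a group lay close together and the groups did not overlap. RPL36A had the lowest change of all genes at a much lower level, 84.8 and 53.7 with vector and 10.1 and 22.6 with QKI7 (log2 change -2.08, SE 0.36, adjusted p = 0.0108). Its replicates differed far more than those of RPL35, and it overlaps a read-through transcript, so its value is uncertain.

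In the small subunit 20 of 30 genes fell. RPS15 stood at 1252 and 1339 with vector and 648 and 595 with QKI7 (log2 change -1.06, SE 0.06, adjusted p = 0.000343), and RPS10 at 188 and 192, against 90.3 and 98.1 (log2 change -1.0, adjusted p = 0.000514). RPS7 stood at 481 and 448, against 263 and 266 (log2 change -0.81, adjusted p = 0.000476). All 3 kept their call under every scale and without any single library. Many ribosomal protein genes have processed copies in the genome, and the sources used here do not say how reads were divided among copies. RPL13AP5, a copy of RPL13A, was itself called lower (log2 change -1.03) and is uncertain for that reason.

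The rest of the translation machinery lay lower by a smaller margin. Of 45 translation factors 19 fell and 1 rose (relative median -0.24), and of 20 cytosolic and mitochondrial aminoacyl-tRNA synthetases, which charge tRNAs, 10 fell and 0 rose (-0.27), where 9.96% of all genes fell. With all 8 libraries in the fit 4 and 1 fell. EEF2, the elongation factor that moves the ribosome along the mRNA and a TOP mRNA itself, stood at 1888 and 1895 with vector and 1276 and 1291 with QKI7 (log2 change -0.56, SE 0.03, adjusted p = 0.000476). EIF4A1, the helicase of cap-dependent initiation, stood at 482 and 479, against 340 and 309 (log2 change -0.57, adjusted p = 0.00173). SARS, the seryl-tRNA synthetase, fell by 0.59 (adjusted p = 0.000938) and EIF3G, a subunit of initiation factor eIF3, by 0.55 (adjusted p = 0.000938). The counts were sensitive to the data used: 5 to 20 translation factors and 1 to 10 synthetases fell under the other scales, 10 translation factors and 5 synthetases fell without QKI7 replicate 1, and 3 synthetases without QKI7 replicate 2.

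Nuclear genes of the respiratory chain, the proteasome and the mitochondrial ribosome had lower medians too. Of 46 respiratory chain genes 12 fell and 0 rose (relative median -0.20). Their share was 26.1%, where 9.96% of all genes fell and 22.6% were called in either direction. Under the other scales 9 to 13 fell and 0 to 3 rose. ATP5E, the epsilon subunit of ATP synthase, stood at 545 and 498 with vector and 282 and 244 with QKI7 (log2 change -0.99, SE 0.08, adjusted p = 0.000938). UQCR10, of complex III, stood at 60.8 and 53.9, against 26.2 and 26.7 (log2 change -1.08, adjusted p = 0.00176). In both genes the replicates lay close together and the groups did not overlap. COX5B, of complex IV, fell by 0.83 (adjusted p = 0.00543). Of 26 proteasome genes 10 fell and 1 rose (relative median -0.25; 42.3% called), among them PSMD2 at 426 and 420 with vector and 251 and 265 with QKI7 (log2 change -0.71, adjusted p = 0.000573); 4 to 10 fell under the other scales and 5 without QKI7 replicate 1. Of 45 mitochondrial ribosomal protein genes 8 fell and 2 rose (relative median -0.18), a share of 22.2% against 22.6% of all genes; the split turned to 2 lower and 5 higher on the TPM as deposited and to 2 lower and 4 higher with spike-in scaling. MRPL18 rose from 64.5 and 65.7 to 112 and 104 (log2 change 0.72, adjusted p = 0.00187), and 2 mitochondrial ribosomal protein genes fell when either QKI7 replicate was left out.

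**Figure D2:**
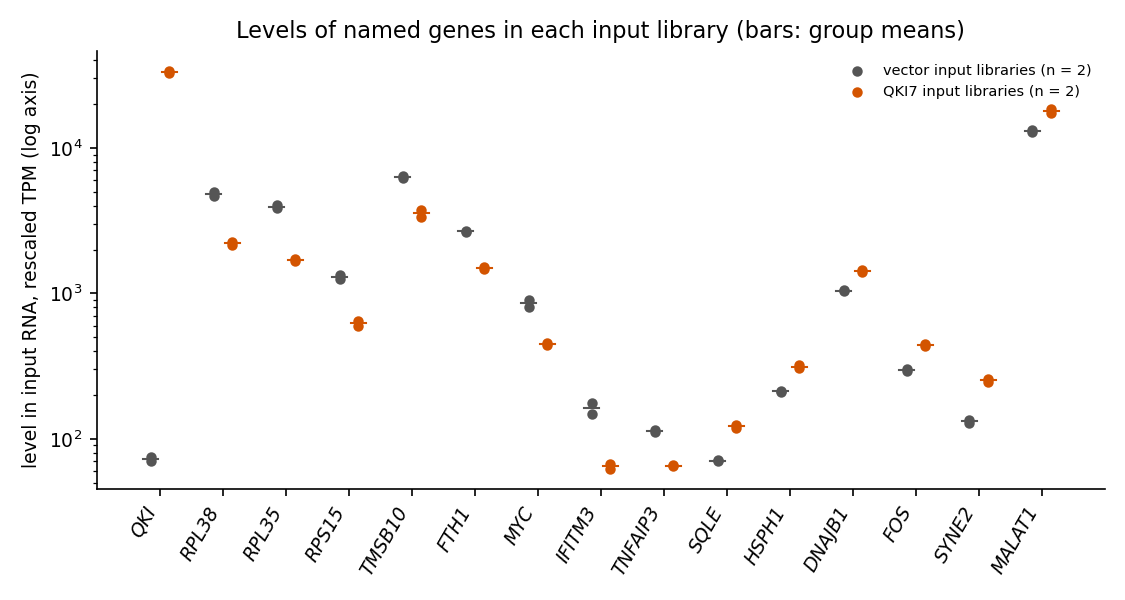
Levels of 15 genes in each input library, in rescaled TPM on a log axis, with grey points for the 2 vector inputs, orange points for the 2 QKI7 inputs and short bars for group means. QKI lies far above its vector level, RPL38, RPL35, RPS15, TMSB10, FTH1, MYC, IFITM3 and TNFAIP3 lie lower with QKI7, and SQLE, HSPH1, DNAJB1, FOS, SYNE2 and MALAT1 lie higher, with no overlap between the groups in any of the 15.

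Interferon-stimulated genes and NF-kappaB genes also lay below the median. Of 14 interferon-stimulated genes 7 fell and 0 rose (relative median -0.35), where 9.96% of all genes fell; 3 fell with all 8 libraries in the fit. IFITM3, a membrane protein that restricts virus entry, stood at 149 and 176 with vector and 67.2 and 62.1 with QKI7 (log2 change -1.31, SE 0.09, adjusted p = 0.000758). IFITM2, a close copy of IFITM3 whose reads may be shared with it, changed by -1.27 (adjusted p = 0.00214), and IFI6, a mitochondrial protein, stood at 107 and 93.7, against 46.2 and 43.6 (log2 change -1.14, adjusted p = 0.00095). In each of these genes every QKI7 input was under every vector input. ISG15, a ubiquitin-like modifier, was at 52.2 and 42.6, against 34.0 and 25.9, and its call (log2 change -0.65, adjusted p = 0.0322) was lost without vector replicate 1 and without QKI7 replicate 2 (adjusted p = 0.108 and 0.124). With any library left out 4 to 7 of the 14 fell, and 4 to 8 under the other scales.

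Of 11 NF-kappaB genes 7 fell and 0 rose (relative median -0.43), where 9.96% of all genes fell. With all 8 libraries in the fit limma called 0 of the 11. TNFAIP3 (A20), which shuts off NF-kappaB signalling, stood at 115 and 112 with vector and at 65.6 and 64.6 with QKI7 (log2 change -0.79, SE 0.07, adjusted p = 0.00107). NFKBIA, the inhibitor IkappaBalpha, stood at 206 and 205, against 146 and 128 (log2 change -0.58, adjusted p = 0.00389). Both are targets of NF-kappaB that feed back on it, and both kept their call under every scale and without any single library. TRAF1, an adaptor of TNF receptors, changed by -0.87 (adjusted p = 0.0105). Without QKI7 replicate 1, 2 of the 11 fell and TRAF1 and RELB (log2 change -0.45) were not among them; on the TPM as deposited and with spike-in scaling 3 fell.

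Immediate early genes went both ways. These are transcription factor genes that are switched on within minutes of a stimulus, and of 17 tested 5 rose and 1 fell (relative median 0.04), where 12.6% of all genes rose and 9.96% fell. With all 8 libraries in the fit 0 of the 17 rose and 1 fell. NR4A1, a nuclear receptor, stood at 67.5 and 75.3 with vector and 127 and 142 with QKI7 (log2 change 0.90, SE 0.09, adjusted p = 0.00173). FOS stood at 294 and 300, against 433 and 452 (log2 change 0.57, SE 0.04, adjusted p = 0.000938), and FOSB at 48.7 and 43.0, against 79.6 and 84.1 (log2 change 0.82, adjusted p = 0.00267). MYC, a growth regulator, was the member that fell: it stood at 809 and 905 with vector and 452 and 439 with QKI7, 1.92-fold lower (log2 change -0.94, SE 0.06, adjusted p = 0.000514). The same directions were called for these 4 genes under all 6 other scales and without any single library.

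Genes of cholesterol synthesis and uptake rose. Of 20 tested, 8 rose and 0 fell, where 12.6% of all genes rose, and the relative median was 0.33. Both QKI7 inputs lay above both vector inputs for 15 of the 20, where 40.5% of all genes did so. SQLE, the squalene epoxidase, stood at 71.7 and 69.9, against 124 and 119 (log2 change 0.77, SE 0.06, adjusted p = 0.00108). HMGCS1, an early enzyme of the mevalonate pathway, stood at 83.2 and 94.1, against 138 and 134 (log2 change 0.61, adjusted p = 0.00396), and MVD, a later decarboxylase of the same pathway, at 67.3 and 58.7, against 97.6 and 94.8 (log2 change 0.61, adjusted p = 0.00576). In all 3 enzymes both QKI7 inputs lay above both vector inputs. Between 7 and 15 of the 20 rose under the other scales and 6 to 10 with any library left out, and limma called 0 of them with all 8 libraries in the fit. HSD17B7P2, a pseudogene copy of the cholesterol enzyme gene HSD17B7, was among the 15 largest rises (31.2 and 24.5, against 66.8 and 54.7; log2 change 1.10), but its reads cannot be told from those of its parent gene with certainty.

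More genes of mitosis rose than fell. Of 39 tested, 21 rose and 3 fell (relative median 0.24), a share called of 61.5%, where 12.6% of all genes rose and 9.96% fell. With all 8 libraries in the fit limma called 0 of the 39. TTK, the spindle checkpoint kinase, stood at 21.7 and 24.0 with vector and 40.4 and 34.5 with QKI7 (log2 change 0.69, adjusted p = 0.0140), UBE2C, a ubiquitin-conjugating enzyme of the anaphase-promoting complex, at 45 and 45.6, against 70.7 and 67.2 (log2 change 0.59, SE 0.08, adjusted p = 0.00519), and ASPM, a spindle pole protein, at 75.5 and 81.9, against 119 and 111 (log2 change 0.55, adjusted p = 0.00503). CDC20, an activator of the same complex, stood at 116 and 106 with vector and 70.5 and 75.9 with QKI7 (log2 change -0.60, SE 0.08, adjusted p = 0.00444). Without QKI7 replicate 1, 9 rose, TTK not among them (adjusted p = 0.0966), and 17 rose without QKI7 replicate 2; 20 to 28 rose under the other scales. Of 29 DNA replication genes 5 rose and 0 fell, but 0 rose by the same test when either QKI7 replicate was left out.

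Cytosolic heat shock chaperones, a class known to be induced by arsenite, stood higher with QKI7. The list of 20 tested genes also held HSF1, which encodes a transcription factor and not a chaperone. Of the 20, 11 rose and 2 fell, HSF1 among those that fell (relative median 0.16). Of all genes 12.6% rose and 9.96% fell. With all 8 libraries in the fit limma called 0 of the 20. DNAJB1, a co-chaperone of HSP70, stood at 1039 and 1047 with vector and 1406 and 1439 with QKI7 (log2 change 0.45, SE 0.04, adjusted p = 0.000938). HSPH1 (HSP110) stood at 211 and 212, against 323 and 306 (log2 change 0.57, SE 0.05, adjusted p = 0.00117), and CHORDC1, a co-chaperone of HSP90, at 102 and 95.4, against 137 and 138 (log2 change 0.47, adjusted p = 0.00492). The mRNA of HSF1, the transcription factor of this response, was slightly lower, at 215 and 208 with vector and 162 and 172 with QKI7 (log2 change -0.34, adjusted p = 0.00852), a call lost with the TPM as deposited, with spike-in scaling and without QKI7 replicate 1. Between 10 and 11 of the chaperone genes rose under the other scales, while 4 rose without QKI7 replicate 1 and 5 without QKI7 replicate 2.

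The chaperones of the endoplasmic reticulum and the targets of ATF4 lay lower. Of 16 endoplasmic reticulum chaperones 6 fell and 0 rose (relative median -0.23), a share of 37.5% against 9.96% of all genes. HSPA5 (BiP), the main one, stood at 576 and 583 with vector and 380 and 382 with QKI7 (log2 change -0.60, SE 0.04, adjusted p = 0.000514), and P4HB, a disulfide isomerase, at 781 and 769, against 548 and 586 (log2 change -0.45, adjusted p = 0.0019). Of 20 ATF4 targets 6 fell and 0 rose (relative median -0.19), a share of 30.0%. TRIB3, a pseudokinase that limits the stress response, stood at 37.3 and 38.2, against 22.1 and 22.2 (log2 change -0.74, adjusted p = 0.00605), and SESN2, a sensor that restrains mTORC1, at 121 and 126, against 80.2 and 75.7 (log2 change -0.66, adjusted p = 0.00194). These falls were seen in every QKI7 library. On the TPM as deposited and with spike-in scaling 2 chaperones and 4 ATF4 targets fell, with all 8 libraries in the fit 2 and 0, and 3 ATF4 targets fell when either QKI7 replicate was left out.

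ATF4 itself, the effector of eIF2alpha phosphorylation, hardly differed. It stood at 1242 and 1192 with vector and at 1081 and 1119 with QKI7 (log2 change -0.15, SE 0.04, adjusted p = 0.0446), and it was not called under 4 of the 6 other scales, turning to 0.04 with quantile normalization and 0.03 on the TPM as deposited; nor was it called without vector replicate 1, QKI7 replicate 1 or QKI7 replicate 2. PPP1R15A (GADD34), which brings a phosphatase to eIF2alpha, stood at 2026 and 2052, against 1691 and 1707 (log2 change -0.26, SE 0.03, adjusted p = 0.00443), and 3 of the 6 other scales did not call it. Of 12 stress mRNAs controlled by upstream open reading frames, 3 fell and 0 rose. Their share was 25.0%, where 9.96% of all genes fell and 22.6% were called in either direction.

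Genes of the oxidative and metal response were split. Of 21, 6 fell and 2 rose (relative median -0.16), a share called of 38.1% against 22.6% of all genes. The split was 2 lower and 4 higher on the TPM as deposited and 9 lower and 2 higher with median-of-ratios scaling. FTH1, the ferritin heavy chain that stores iron, stood at 2704 and 2630 with vector and 1510 and 1463 with QKI7 (log2 change -0.84, SE 0.04, adjusted p = 0.000223). PRDX1, a peroxidase, stood at 124 and 142, against 181 and 171 (log2 change 0.40, adjusted p = 0.0151), a call lost when either QKI7 replicate was left out. Of 19 p53 targets 3 fell and 0 rose. Their share was 15.8%, where 9.96% of all genes fell and 22.6% were called in either direction.

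The Hippo pathway, which restrains the coactivator YAP and its TEAD partners, has been studied in connection with QKI7. Of 22 pathway genes 5 rose and 3 fell (relative median 0.01), a share called of 36.4% against 22.6% of all genes. On the TPM as deposited 7 rose and 0 fell, and with median-of-ratios scaling 4 rose and 4 fell. YAP1 stood at 48.2 and 47.2 with vector and 53.2 and 53 with QKI7, a log2 change of 0.15 that was not called (adjusted p = 0.225). TEAD1, a DNA-binding partner of YAP, stood at 92.5 and 93.7, against 120 and 112 (log2 change 0.31, SE 0.07, adjusted p = 0.0191), TEAD2 at 71.5 and 89.5, against 115 and 112 (log2 change 0.50, adjusted p = 0.0206), and LATS1, a kinase that inhibits YAP, at 51.2 and 50.2, against 65.2 and 64.8 (log2 change 0.35, adjusted p = 0.0229). The call of LATS1 was lost whichever library was left out. When either QKI7 replicate was left out, 0 of the 22 were called.

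Of 16 YAP target genes 7 fell and 1 rose (relative median -0.24), where 9.96% of all genes fell and 12.6% rose. ANKRD1, a nuclear ankyrin repeat protein, stood at 3153 and 3417 with vector and 2239 and 2169 with QKI7 (log2 change -0.57, SE 0.05, adjusted p = 0.00107), a call lost with quantile normalization (-0.09, adjusted p = 0.254). CYR61 (CCN1), a secreted matrix protein, stood at 818 and 841, against 595 and 570 (log2 change -0.51, SE 0.04, adjusted p = 0.000984), and CTGF (CCN2), its relative, at 188 and 185, against 115 and 133 (log2 change -0.59, SE 0.08, adjusted p = 0.00485). The 3 mRNAs were lower in both QKI7 libraries. Under other scales 3 to 7 of the 16 fell, 3 without QKI7 replicate 1 and 4 without QKI7 replicate 2.

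Stress granule protein genes went both ways. Of 33, 5 rose and 6 fell (relative median -0.05), a share called of 33.3% against 22.6% of all genes. The split ran from 7 higher and 1 lower on the TPM as deposited to 2 higher and 8 lower with median-of-ratios scaling, and without QKI7 replicate 1 it was 0 higher and 3 lower. G3BP1, which nucleates stress granules, stood at 232 and 249 with vector and 244 and 233 with QKI7, with overlapping groups (log2 change -0.01, SE 0.06, adjusted p = 0.908). YBX3, a cold shock domain protein, stood at 785 and 790, against 556 and 574 (log2 change -0.48, adjusted p = 0.00095). Of 22 writers and readers of m7G and m6A, modified bases of mRNA of which QKI7 has been linked to the first, 2 rose and 1 fell, a share of 13.6% against 22.6% of all genes. YTHDC2, an m6A reader, rose by 0.48 (adjusted p = 0.0166), a call lost when either QKI7 replicate was left out, and IGF2BP2, an RNA-stabilizing reader, stood at 505 and 523, against 382 and 377 (log2 change -0.44, SE 0.04, adjusted p = 0.00173), a call lost on the TPM as deposited and with spike-in scaling.

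Among 40 hnRNP and SR splicing factors 2 rose and 7 fell (relative median -0.06), a share called of 22.5% against 22.6% of all genes. With median-of-ratios scaling 0 rose and 12 fell, and on the TPM as deposited 5 rose and 1 fell. HNRNPA1 stood at 1481 and 1496 with vector and 1136 and 1128 with QKI7 (log2 change -0.39, SE 0.03, adjusted p = 0.00126), a call lost on the TPM as deposited and with spike-in scaling, and SRSF9 at 298.61 and 283, against 187 and 214 (log2 change -0.54, adjusted p = 0.00488). Of 19 RNAs that earlier work has named as targets of QKI, 7 rose and 3 fell (relative median 0.09), a share called of 52.6% against 22.6% of all genes. Their median length on the chromosome, introns included, was 139200 bases. Among the 729 protein-coding genes that span 95040 to 154800 bases, 21.5% rose and 4.25% fell, with a relative median of 0.08. With median-of-ratios scaling 4 rose and 5 fell, and on the TPM as deposited 9 rose and 1 fell. MACF1, a giant linker of microtubules and actin whose splicing QKI controls in other cells, stood at 495 and 512, against 749 and 730 (log2 change 0.56, SE 0.04, adjusted p = 0.000765). CD44, a cell adhesion receptor, stood at 193 and 209, against 137 and 136 (log2 change -0.56, SE 0.06, adjusted p = 0.00225). Without QKI7 replicate 1, 1 of the 19 rose, and 2 rose without QKI7 replicate 2, while 3 fell whichever library was left out.

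**Figure D3:**
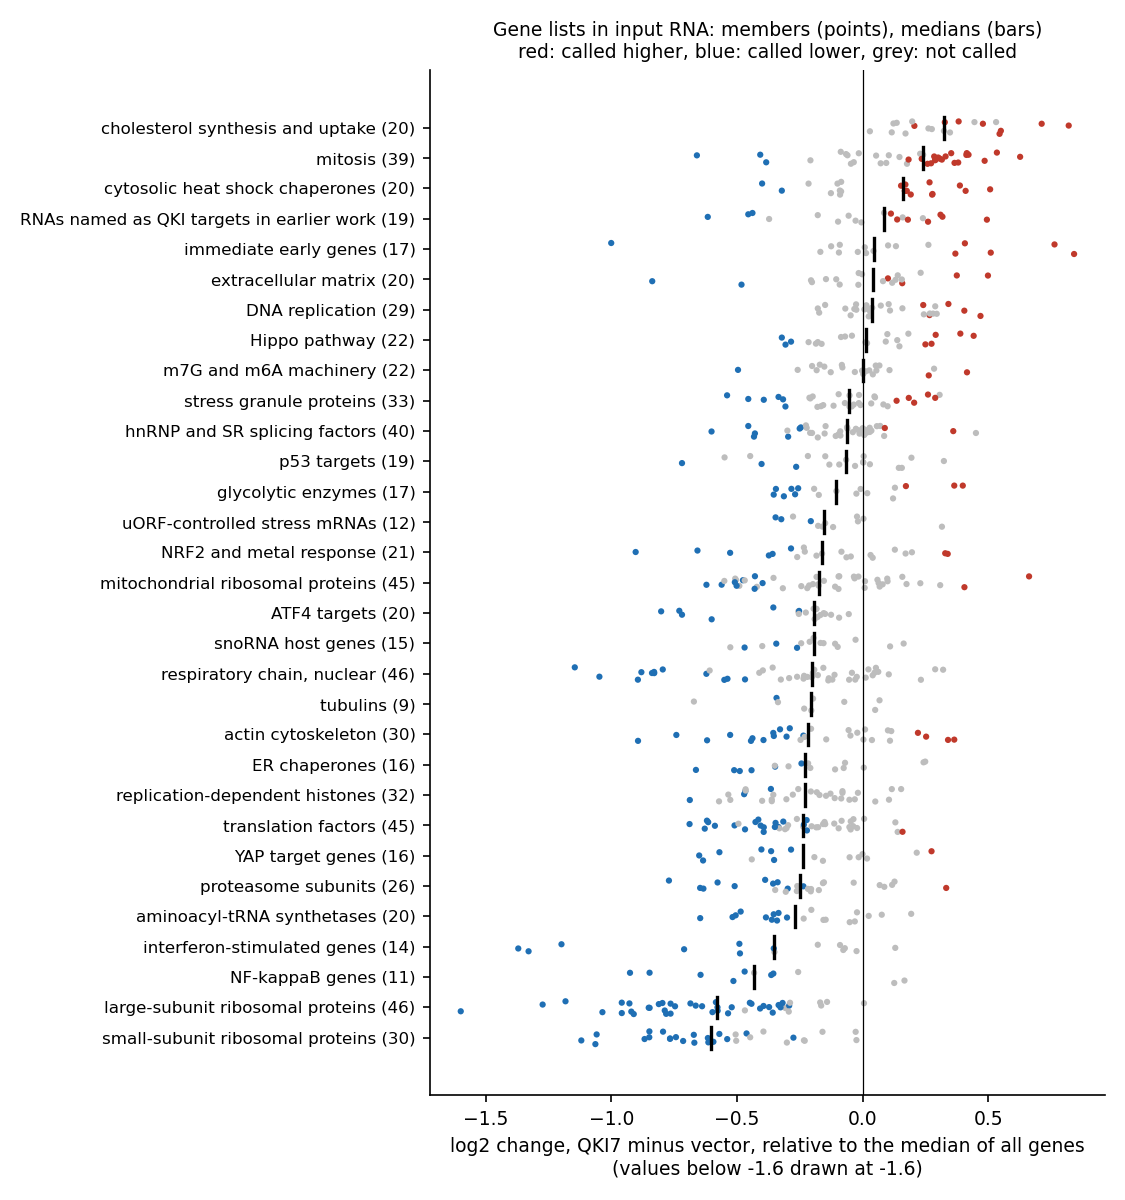
Each row is a gene list with its number of tested genes in brackets, each point a member and each bar the median. The horizontal axis is the log2 change, QKI7 minus vector, relative to the median of all genes, with red for called higher, blue for called lower and grey for neither; RPL36A is drawn at the left edge of the axis. Ribosomal proteins, NF-kappaB and interferon-stimulated genes have the lowest medians (-0.60 to -0.35) and cholesterol genes and mitosis the highest (0.33 and 0.24).

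Structural genes of the cell were mixed. Of 30 abundant actin cytoskeleton genes 13 fell and 4 rose (relative median -0.22), a share called of 56.7% against 22.6% of all genes. Among the 1306 genes with the highest level 28.7% fell and 18.7% rose. On the TPM as deposited 4 fell and 7 rose, and with spike-in scaling 4 fell and 4 rose. TMSB10, which sequesters actin monomers, stood at 6190 and 6438 with vector and 3359 and 3734 with QKI7 (log2 change -0.83, SE 0.06, adjusted p = 0.000615), and CFL1, cofilin, at 1073 and 1008, against 655 and 641 (log2 change -0.68, SE 0.04, adjusted p = 0.000514). Of 20 extracellular matrix genes 4 rose and 2 fell, a share called of 30.0%; 10 rose and 1 fell on the TPM as deposited, and 2 rose and 3 fell with median-of-ratios scaling. TNC, the matrix protein tenascin C, stood at 110 and 107, against 62.9 and 63.1 (log2 change -0.78, SE 0.07, adjusted p = 0.00117), while COL5A1, a fibrillar collagen chain, stood at 225 and 214, against 323 and 325 (log2 change 0.56, SE 0.05, adjusted p = 0.00108). Of 17 glycolytic genes 6 fell and 3 rose (52.9% called), but 0 fell and 5 rose on the TPM as deposited and 0 fell and 2 rose with spike-in scaling. GAPDH changed by -0.29 (adjusted p = 0.00343) and PGK1 by 0.46 (adjusted p = 0.00524). GAPDH kept its call under 4 of the 6 other scales and PGK1 under all 6.

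Non-coding RNAs went apart by kind. MALAT1, a nuclear RNA of speckles, stood at 12882 and 13215 with vector and 18376 and 17503 with QKI7 (log2 change 0.46, SE 0.04, adjusted p = 0.00165), and it was higher under 5 of the 6 other scales but lower with quantile normalization (-0.60, adjusted p = 9.12e-06). NEAT1, the scaffold of paraspeckles, stood at 559 and 588, against 730 and 738 (log2 change 0.36, SE 0.04, adjusted p = 0.00325). Of 6 nuclear long non-coding RNAs 3 rose and 0 fell, where 12.6% of all genes rose and 9.96% fell. With quantile normalization 2 rose and 1 fell. Among all 226 long non-coding RNAs tested 30 rose and 8 fell. RPPH1, the RNA of RNase P, and RMRP, that of RNase MRP, fell by 0.35 and 0.40 (adjusted p = 0.0316 and 0.0191). RPPH1 stood at 47566 and 43239 with vector and 32558 and 38619 with QKI7. Neither call held on the TPM as deposited, with spike-in scaling or without QKI7 replicate 1. That of RPPH1 was also lost with quantile normalization and without vector replicate 1, and that of RMRP without QKI7 replicate 2. Among 32 replication-dependent histone genes 4 fell and 0 rose. Their share was 12.5%, where 9.96% of all genes fell and 22.6% were called in either direction.

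Outside these lists, the genes with the largest rises included SYNE2, SSC4D, PIK3R3, IGFBP5 and RALGAPA1. SYNE2 (nesprin-2), a giant protein that ties the nucleus to the cytoskeleton (chromosome 14, 63761596 to 64226449), stood at 129 and 136 with vector and 257 and 247 with QKI7 (log2 change 0.92, SE 0.05, adjusted p = 0.000462). PIK3R3, a regulatory subunit of phosphoinositide 3-kinase, stood at 24.9 and 24.9, against 46.4 and 46.5 (log2 change 0.87, SE 0.10, adjusted p = 0.00302), and IGFBP5, which binds insulin-like growth factors, at 33.3 and 31.7, against 59.6 and 60.2 (log2 change 0.86, SE 0.09, adjusted p = 0.00214). RALGAPA1, a brake on Ral GTPases, rose by 0.84 (adjusted p = 0.00441) and SSC4D, a scavenger receptor family member, by 0.84 (adjusted p = 0.00156). LOC100507487, which is named only by its locus, rose by 1.2 (adjusted p = 0.00313). Each kept its call under all scales and without any single library.

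On the lower side, MIF, a cytokine with an antisense gene at its locus, stood at 57.8 and 64.6 with vector and 10.9 and 22.6 with QKI7 (log2 change -1.89, SE 0.29, adjusted p = 0.0076). Both QKI7 values were far under the vector values, but they differed from each other more than the vector values did, and no label or note says if counting used the strand. POLR2I, a small subunit of RNA polymerase II, stood at 68.5 and 72.1, against 36.5 and 23.0 (log2 change -1.25, SE 0.20, adjusted p = 0.0081). SPP1, osteopontin, stood at 37.3 and 26.2, against 13.6 and 16 (log2 change -1.03, adjusted p = 0.0136), and it was not called without QKI7 replicate 1 (adjusted p = 0.0720). NME2 also fell (log2 change -1.14), but it overlaps NME1-NME2 and is uncertain.

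The changes followed the length of the gene on the chromosome. Across 7294 protein-coding genes the genomic span from start to end, introns included, and the log2 change had a Spearman correlation of 0.302, and 0.287 without ribosomal protein genes. These are correlations across genes of the same 4 libraries, which are not independent replicates. Among the 730 shortest genes, spanning 276 to 6010 bases, 166 fell and 26 rose, with a relative median of -0.16 (-0.13 without ribosomal protein genes). Among the 730 longest, spanning at least 155000 bases, 204 rose and 34 fell, with a relative median of 0.13. The shares ran from 22.7% lower and 3.56% higher in the shortest group to 4.66% lower and 27.9% higher in the longest. SYNE2, with a span of 464850 bases, and IFITM3, with 1185, lie at the 2 ends.

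The spread between replicates also had a relation to span, of smaller size in both groups. Its sign depends on which library was numbered first, so only the sizes can be compared. The correlation of span with the difference between replicates (replicate 2 minus replicate 1) was 0.126 for vector and -0.108 for QKI7, against 0.225 to 0.326 for the 4 differences between a QKI7 and a vector library. Span and mean level had a Spearman correlation of 0.00638, and level and change one of -0.182. Of the 1306 genes with the highest level 375 fell and 244 rose, and of the 1309 with the lowest level 25 fell and 74 rose. By chromosome, the lowest median lay on chromosome 19 (relative median -0.10, 107 lower and 47 higher of 537), whose tested genes had a median span of 18160 bases, the shortest of the numbered chromosomes. Transcript length was not analysed here.

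**Figure D4:**
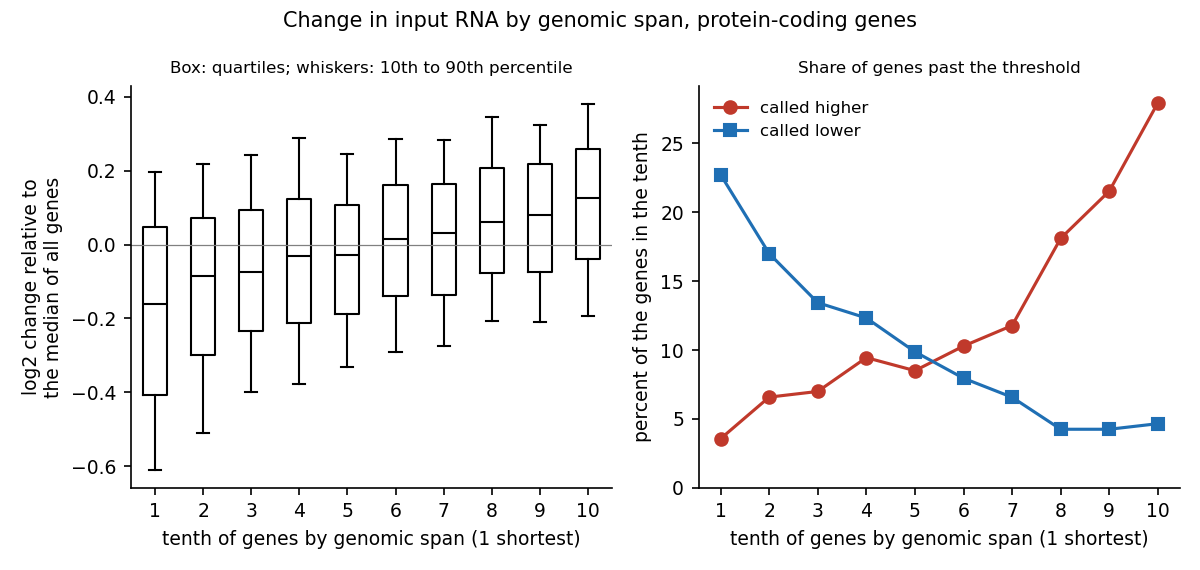
Protein-coding genes in 10 groups of equal size by genomic span, from the shortest (1) to the longest (10). The left panel gives the log2 change relative to the median of all genes (line: median; box: quartiles; whiskers: 10th and 90th percentiles), and the right panel the percent of genes called higher or lower; the medians run from -0.16 to 0.13 and the 2 lines of calls cross in the middle groups.

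The input changes were set beside the ribosome footprints of the same constructs. Footprints of 2826 genes with a mean of at least 0.2 deposited TPM were put on the same scale of rescaled sums. Their median change was -0.21, and both QKI7 footprint libraries lay above both vector footprint libraries for 19.2% of genes and below them for 45.5%. Of 223 genes that rose in the input 38.1% lay above and 26.0% below. Of 596 genes that fell in the input 58.7% lay below (54.7% without ribosomal proteins) and 13.1% above. Across all 2826 genes input change and footprint change had a Pearson correlation of 0.209 and a Spearman correlation of 0.211, or 0.183 and 0.184 without ribosomal proteins. Input and footprint libraries of a construct carry the same labels of cells and treatment, so these points share their source.

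Ribosomal protein mRNAs were low in both kinds of library, with 73 of 76 below in footprints and a footprint median 0.35 below that of all genes (-0.35), against -0.59 in the input. RPL35 changed by -0.73 in footprints and -1.21 in the input, and RPL38 by -0.51 and -1.12. These single-gene values and those that follow are not relative to the medians of all genes, -0.21 in footprints and 0.06 in the input. Relative to those medians RPL35 changed by -0.52 and -1.27, and RPL38 by -0.30 and -1.18. Cholesterol genes differed among themselves: SQLE changed by 0.26 in footprints, above the vector range, and HMGCS1 by -0.37, below it. MYC changed by -0.59 in footprints and -0.94 in the input, and IFITM3 by -0.97 and -1.31. NR4A1 changed by 1.59 in footprints and 0.90 in the input, but its footprint mean of 0.135 deposited TPM lay under the 0.2 required above. It is therefore not among the 2826 genes. Its footprints stood at 6.44 and 6.40 rescaled TPM with vector and 18.5 and 24.6 with QKI7. FTH1 changed by 0.29 in footprints, above the vector range, although its input fell by 0.84. No test was made on these footprint values.

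**Figure D5:**
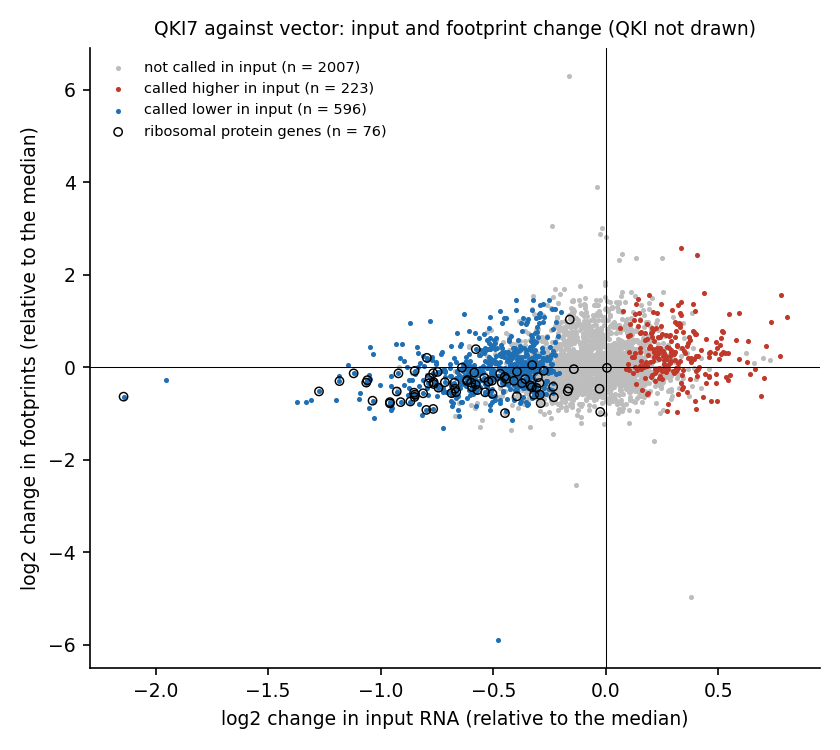
Each point is 1 of 2826 genes. The horizontal axis is the log2 change in input RNA and the vertical axis that in footprints, QKI7 minus vector, each relative to its median; red and blue mark genes called higher and lower in the input and rings ribosomal protein genes, which lie to the left and mostly below the horizontal line.

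The labelled cell type was checked against its markers. Of 8 genes of the osteoblast lineage, SPARC (12.8 to 15.8 deposited TPM in the 4 inputs) and COL1A1 (17.8 to 24.1) were tested. With equal sums neither was called in the fit of all 4 inputs. COL1A1 was called higher with QKI left out of the sums, with quantile normalization and on the TPM as deposited (log2 changes 0.27, 0.33 and 0.37). Without vector replicate 1 it changed by 0.29. RUNX2, ALPL, IBSP, BGLAP, SP7 and COL1A2 were at 0.72 deposited TPM or less in every input. Of the mesenchymal markers, VIM fell by 0.53 (adjusted p = 0.00089) and S100A6 by 0.66 (adjusted p = 0.00576), and CDH2 was not called (adjusted p = 0.213). None of 16 blood, epithelial and neural markers reached the level needed for testing: HBB had the highest value, 0.57 deposited TPM in vector replicate 2, and the other markers stayed below it. RBFOX3, a neural marker, stood at 0.43 to 0.53 deposited TPM in the 4 inputs, within the range of RUNX2 (0.27 to 0.72).

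The libraries also differed in composition. The 24367 rows kept for the comparison made up 4.29% and 4.58% of all deposited TPM in the vector inputs and 5.15% and 4.86% in the QKI7 inputs, the rest being mainly 7S RNA, small nuclear RNA and spike-ins. Per spike-in TPM they amounted to 0.323 and 0.318 with vector, and 0.324 and 0.371 with QKI7, so by that measure the difference between the groups lay in QKI7 replicate 2. The rows named for 18S and 28S ribosomal RNA took 0.0136% and 0.0154%, and 0.0114% and 0.0115%, of vector inputs, against 0.0230% and 0.0511%, and 0.0211% and 0.0468%, of QKI7 inputs, highest in QKI7 replicate 2. Their part in the changes above was not tested.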

How the data were processed

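The authors deposited 1 table of TPM values for the 8 libraries; per the labels' protocols, ribosomal RNA was depleted and single reads of 51 bases were sequenced, and the tools STAR and RSEM 1.2.31 and the build GRCh38 come from the submitters' processing notes. TPM hold no read depth, so no count test and no counting interval was possible and the precision rests on 2 libraries a group. Of 26902 rows, 2535 were dropped by name (1927 begin with MIR, which includes host genes), the other 24367 were rescaled to a sum of 1000000 in each library, and 7834 with a mean input TPM of at least 1 were tested, so a change is on the log2(rescaled TPM + 1) scale.

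Changes were tested with limma 3.58.1 under R 4.3.3 (lmFit, eBayes with a variance trend, two-sided, 2 residual and 4.66 prior degrees of freedom), with Benjamini-Hochberg adjustment over all 7834 rows and a threshold of 0.05. An exact permutation test of 2 against 2 libraries cannot go below p = 0.333. On simulated data for this comparison, 24%, 88% and 100% of genes changed by 0.25, 0.5 and 1 on the log2 scale were recovered. Each size was given to 100 genes, and there were 31 false calls among 7534 unchanged genes. Beside 24, 88 and 100 true calls, these 31 were a larger share of all simulated calls than the threshold of 0.05. The simulation therefore does not show that the false share of the reported calls lies under 0.05.

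The gene lists, tests and members were chosen with earlier results of these data known, so a list's direction is not independent evidence. Named genes were the 15 largest changes in each direction without overlap of the groups, up to 4 called members of each list by size, and QKI, ATF4, PPP1R15A, G3BP1, YAP1, TEAD1, STAR-family genes and markers; some genes this rule names are not reported here. Symbols were matched to RefSeq genes of GRCh38.p14 (7338 directly, 384 by an older symbol, 112 unmatched), which gave spans and start sequences. Figures were drawn with matplotlib 3.10.9. Alternatives covered scaling, pseudocount, filter, libraries in the fit, variance model, a replicate block and leaving out each library.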

Additional observations from a re-analysis of the deposited data

Results flagged for a closer look

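Row classes that the comparison left out also differed between the input libraries. As a share of all deposited TPM, QKI7 over vector, rows named for 28S ribosomal RNA stood at a ratio of 2.96, those for 18S at 2.55 and rows with names that begin with RNA5 at 2.30; in each class both QKI7 inputs lay above both vector inputs, and QKI7 replicate 2 was highest. MicroRNA-named rows stood at 1.23, small Cajal body RNAs at 1.17 and H/ACA small nucleolar RNAs at 1.16, beside 1.13 for the rows that were kept. Small nuclear, 7S and C/D small nucleolar RNAs and the spike-ins overlapped between the groups. With 2 libraries a group none of these ratios was tested.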

How the results depend on the processing

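Genes called higher numbered 989 as reported, 1487 with QKI left out of the sums, 659 with median-of-ratios scaling and 2339 on the TPM as deposited; genes called lower numbered 780 as reported, 278 on the TPM as deposited and 285 with spike-in scaling. The filter moved the counts too: at 5 TPM or more, 1006 of 1967 genes passed (445 higher), and with no filter 754 of 22578 (358 higher, 396 lower). With all 8 libraries in the fit 113 passed (7 higher, 106 lower), and without a variance trend 1081 passed (649 higher, 432 lower). The other scalings, both other pseudocounts (1769 and 1786 calls), a filter of 0.2 TPM and robust eBayes kept the total within 1.5 times. Leaving out 1 library gave 513 to 1413 calls, 185 to 768 higher and 328 to 645 lower, lowest without QKI7 replicate 1.

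The labels give both groups replicate numbers, but the deviations of same-numbered libraries correlated at -0.058, so the numbers did not pair them; with the replicate block 1529 genes passed (819 higher, 710 lower), 1446 of them among the 1769. Reversed values were ATF4 at 0.035 with quantile normalization and 0.028 on the TPM as deposited, and MALAT1 at -0.60 with quantile normalization, where MYH9 was also called in the opposite direction; the cause was not tested. TPM carry no depth, so what depth limits is unknown here.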
